A study of Mus musculus with 3 samples.

Results

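Col7a1, Col8a1, Col12a1, Col14a1 and Col16a1, collagen genes whose products link collagen fibrils to each other or anchor them to neighbouring structures, were described in mouse dorsal skin and in healing skin wounds. The 5 genes were taken by symbol from the gene table of the series, which lists 27998 genes, and all 5 were found once. They were chosen with their levels in these libraries known, so their values are a description and no test is attached to them. Single cells had been measured in 3 libraries, 1 per condition, all from male C57BL/6 mice of 7 to 9 weeks. CTRL is non-lesional dorsal skin. PWD2 and PWD7 are the wound bed of dorsal skin at post-wounding day 2 and day 7, where each side of the back had received a wound through the full skin, 1.0 cm by 0.5 cm in size, while the hair follicles were in telogen, the resting phase of the hair cycle. No genetic change or drug was named for any library, and the sources used here do not give the number of mice behind each. Skin was dissociated with collagenase D and DNase1, and a droplet method counted the 3′ ends of transcripts as unique molecular identifiers (UMIs). The title of the series names IL1 and WNT signalling in dermal adipocyte lineage cells, and the conditions set wound tissue at an early and a later day against unwounded skin.

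Most collagen of the dermis lies in fibrils built from types I, III and V. Types XII, XIV and XVI (genes Col12a1, Col14a1 and Col16a1) belong to the FACIT group, fibril-associated collagens with interrupted triple helices, which sit on the surface of such fibrils and form none of their own. Type VII (Col7a1) assembles into the anchoring fibrils that fasten the basement membrane of the epidermis to the dermis, and its loss causes dystrophic epidermolysis bullosa, a blistering disease. Type VIII (Col8a1) is a short-chain collagen that forms lattices beneath vessel endothelium and in the cornea. A collagen helix repeats a triplet that begins with glycine, so its coding sequence repeats a glycine codon.

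That repeat is printed here because all 5 genes share it and differ widely in how much of the protein it fills. Each line holds the start of the longest uninterrupted run of such triplets in the longest coding transcript of GENCODE M21 on GRCm38. It gives 60 bases read 5′ to 3′ on the coding strand, with the glycine codon (GGN) that opens each triplet in capitals. A further glycine codon, ggg in the Col8a1 line, ends its triplet and is in small letters. The genomic span of the 60 bases is chr9:108978632-108978844 on the plus strand for Col7a1, chr16:57628024-57628083 on the minus strand for Col8a1, chr9:79612919-79613769 on the minus strand for Col12a1, chr15:55471708-55472977 on the plus strand for Col14a1 and chr4:130079646-130079705 on the plus strand for Col16a1, all coding exons and, where the span is longer than 60 bases, the intron between them.
Col7a1: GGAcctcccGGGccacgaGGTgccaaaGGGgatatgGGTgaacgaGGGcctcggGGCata
Col8a1: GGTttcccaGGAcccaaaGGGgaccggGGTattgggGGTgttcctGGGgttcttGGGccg
Col12a1: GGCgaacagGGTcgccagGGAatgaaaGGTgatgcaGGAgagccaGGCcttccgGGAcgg
Col14a1: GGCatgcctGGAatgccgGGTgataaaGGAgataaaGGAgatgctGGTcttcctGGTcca
Col16a1: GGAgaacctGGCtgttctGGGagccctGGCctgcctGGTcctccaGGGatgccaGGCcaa

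Runs of at least 10 such triplets made up 47.0% of the 2944 codons of Col7a1, 51.2% of the 744 codons of Col8a1 and 54.9% of the 1580 codons of Col16a1. In Col12a1 they made up 7.63% of 3065 codons and in Col14a1 13.0% of 1798. Col12a1 and Col14a1 each carried 4 runs with 234 helix codons in all, and the longest run of each was 32 triplets. Col7a1 carried 18 runs, the longest of 75 triplets, Col16a1 14 runs, and Col8a1 6. Col7a1 (ENSMUSG00000025650) lies on chromosome 9 at 108953586 to 108984875 with 119 exons, and Col12a1 (ENSMUSG00000032332) on the same chromosome at 79598991 to 79718831 with 66 exons. Col8a1 (ENSMUSG00000068196) lies on chromosome 16 at 57624258 to 57754737 with 4 exons, Col14a1 (ENSMUSG00000022371) on chromosome 15 at 55307750 to 55520803 with 48 exons, and Col16a1 (ENSMUSG00000040690) on chromosome 4 at 130047840 to 130099283 with 70 exons. An annotated antisense gene lies within Col12a1 and within Col14a1, in neither case over the 3′ end of the collagen gene.

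The libraries held 123088680 UMIs over 10857 barcodes in CTRL, 138046172 over 8707 in PWD2 and 102345327 over 7317 in PWD7, and 9354, 7339 and 4714 cells were kept. Between 14 and 24 barcodes were shared by any pair of libraries. Clusters were named from marker genes and are called "-like" for that reason. Fibroblast-like cells numbered 6488 in CTRL, 4072 in PWD2 and 2307 in PWD7, with median depths of 9260, 26109 and 26309 UMIs per cell. Different clusters held most of them in each library, clusters 0, 4, 5, 7 and 17 in CTRL, clusters 2 and 3 in PWD2, and clusters 6 and 12 in PWD7. The separation was not complete, since clusters 7, 0 and 5 also held 156, 67 and 66 PWD7 cells. Keratinocyte-like cells, which mark skin, numbered 1521, 1 and 90, so almost no epidermal cells were found at day 2. Levels are given as CPM: for each library and class, a gene's UMIs were added up over cells and divided by all UMIs of those cells, per 1e+06 UMIs. Intervals are exact 95% intervals and cover counting error only, not differences between mice. There was 1 library per condition and no replicate, so differences between conditions carry no test.

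In fibroblast-like cells the 5 genes fell into 3 time courses. Col12a1 was higher at day 2 than in non-lesional skin and higher again at day 7. Col8a1 was higher at day 2 and stood at nearly the same level at day 7. Col7a1, Col14a1 and Col16a1 were lower at day 2 than in non-lesional skin and at day 7 above it, Col7a1 by far the most. Counted on log2(CPM + 5), 2 of the 5 passed 2-fold upward and 3 passed it downward at day 2 against non-lesional skin, where 10.9% of 16139 genes with at least 10 UMIs were that much higher and 6.3% that much lower. At day 7 against non-lesional skin 3 were higher and 0 lower, where 7.85% of 15972 genes were higher and 4.21% lower. At day 7 against day 2 the counts were 4 and 0, where 2.83% of 16232 genes were higher and 1.64% lower. All 5 passed the minimum of 10 UMIs in each pair, and since they were chosen on these levels nothing is read from the counts. Of the cell markers followed in the same cells, the 6 smooth muscle and pericyte genes summed to 62.0 CPM in CTRL, 80.1 in PWD2 and 1431 in PWD7, of which Acta2 made up 20.4, 69.8 and 1386. The 6 keratinocyte genes summed to 113, 10.9 and 35.0 CPM and the 5 neutrophil genes to 0.933, 136 and 7.75 CPM. Every gene of these lists had UMIs in each library, and the part of these cell types in the collagen levels was not tested.

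**Figure D1:**
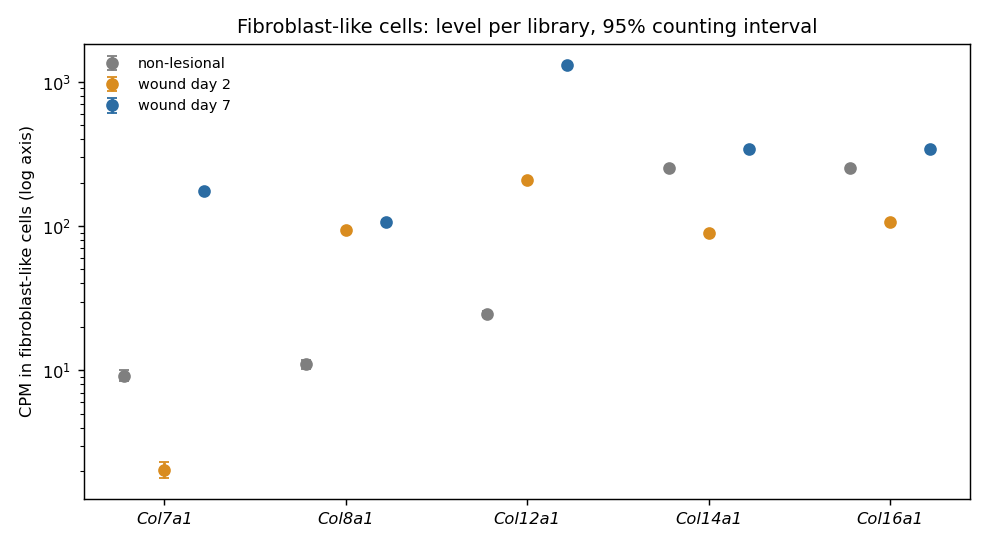
Levels of the 5 genes in fibroblast-like cells as CPM on a log axis, with 1 point per library (grey CTRL, orange PWD2, blue PWD7) and bars for exact 95% counting intervals, many of them smaller than the point. Col12a1 stands at 24.7, 207 and 1300.1 CPM, and Col7a1, Col14a1 and Col16a1 have their lowest point at day 2.

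The anchoring fibril gene Col7a1 had 583 UMIs in fibroblast-like cells of CTRL, 228 in PWD2 and 11575 in PWD7, which is 9.22 CPM, 2.05 CPM (1.79 to 2.34) and 175 CPM (172 to 178). The lowest library was day 2 and the highest day 7. Day 2 stood at 0.223 of the non-lesional level (0.190 to 0.260), a log2 difference of -1.01 with the pseudocount, just past the 2-fold limit, and of -0.94, short of it, without a non-lesional subset led by Wif1 that is described with the subsets. Day 7 was 19.0-fold above non-lesional skin (17.5 to 20.7) and 85.2-fold above day 2 (74.8 to 97.6). In the last of these pairs 4 genes of the whole table had a larger log2 fold.

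The network-forming Col8a1 had 696 UMIs in CTRL, 10449 in PWD2 and 7095 in PWD7, or 11.0, 94.0 and 107 CPM. Both wound libraries stood well above non-lesional skin and close to each other. Day 2 was 8.54-fold above non-lesional skin (7.91 to 9.24), day 7 9.74-fold above it (9.01 to 10.5), and day 7 stood at 1.14 times day 2 (1.11 to 1.17).

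Of the fibril-surface collagens, Col12a1 had 1560 UMIs in CTRL, 23048 in PWD2 and 86063 in PWD7, or 24.7 CPM (23.5 to 25.9), 207 CPM (205 to 210.1) and 1300.1 CPM (1291 to 1309). The order ran from non-lesional skin over day 2 to day 7 with no overlap of intervals. Day 2 was 8.41-fold above non-lesional skin (7.99 to 8.86), and day 7 was 52.7-fold above it (50.1 to 55.5) and 6.27-fold above day 2 (6.18 to 6.36). For day 7 against non-lesional skin 9 genes of 15972 had a larger log2 fold.

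Col14a1 and Col16a1 shared a time course in the summed cells. Col14a1, whose product binds the fibril surface, had 250.4 CPM in CTRL, 88.7 in PWD2 and 344 in PWD7, from 15834, 9860 and 22760 UMIs. Col16a1 had 253, 106 and 341 CPM, from 15979, 11829 and 22580 UMIs. Day 2 stood at 0.354 of the non-lesional level for Col14a1 (0.346 to 0.363) and at 0.421 for Col16a1 (0.411 to 0.431). Day 7 stood at 1.37 (1.35 to 1.40) and 1.35 (1.32 to 1.38) times non-lesional skin, log2 differences of 0.45 and 0.43. The median of all genes in that pair was 0.12, and scaling by the median of ratios in place of the total brought the median to 0.01 and both differences down to 0.06 and 0.03. Against day 2 the day 7 levels were 3.88-fold (3.78 to 3.97) and 3.20-fold (3.13 to 3.28) higher.

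The summed levels hid an opposite distribution of Col14a1 and Col16a1 among the fibroblast-like subsets of non-lesional skin. Fibroblast-like cells were clustered again by themselves, with the 5 genes kept out of the variable genes, and each subset is named by its leading genes. In CTRL, Col14a1 stood at 650.1 CPM in the Myoc/Cilp subset (662 cells) and at 614 in the Pi16/Smpd3 subset (1627 cells), 269 in Tnmd/Pdgfrl (848 cells) and 148 in Inmt/C4b (385 cells). In the same subsets Col16a1 stood at 107, 88.8, 121 and 81.3 CPM. The order was turned round elsewhere in the same library. Col16a1 had 448 CPM in the Ctla2a/Ndufa4l2 subset (1349 cells), 443 in Igfbp2/Grem1 (722 cells), 324 in Coch/Cyp26b1 (492 cells) and 203 in Wif1/Enpp2 (231 cells), where Col14a1 had 20.5, 10.8, 35.2 and 19.0. The Wif1/Enpp2 subset lay in fibroblast-like clusters, but among the subsets its own best-scoring marker list was that of the dermal papilla (score 0.843). The Pi16/Smpd3 subset held 55.0% of the Col14a1 UMIs of CTRL fibroblast-like cells and 7.89% of those of Col16a1, while the Ctla2a/Ndufa4l2 subset held 2.17% and 46.9%. The Fam132b/Des subset of 77 cells, which also carried the muscle progenitor genes Pax7 and Myf5 among its leading genes, had 2.49 and 19.9 CPM.

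The other members lay in few subsets of non-lesional skin. Col8a1 was at 139 CPM (129 to 151) in the Myoc/Cilp subset, which held 90.1% of its fibroblast-like UMIs in CTRL, and between 0 and 9.96 CPM in the other 9 subsets with at least 50 cells. Col7a1 was at 52.4 CPM in Coch/Cyp26b1, 38.0 in Wif1/Enpp2 and 33.3 in Igfbp2/Grem1, intervals 45.1 to 60.5, 28.6 to 49.6 and 29.4 to 37.5. The last 2 intervals overlap, as do the first 2. Those subsets, all among the Col16a1-high ones, held 31.9%, 9.26% and 46.7% of the Col7a1 UMIs. The 38.0 CPM of the Wif1/Enpp2 subset, which scored best for the dermal papilla list, stood beside 40.1 in the dermal papilla-like cells of CTRL. Col7a1 was under 1 CPM in the 4 Col14a1-high subsets. Col12a1 was at 119.7 CPM (102 to 139) in that Wif1/Enpp2 subset, 94.5 (85.7 to 104) in Myoc/Cilp, 58.3 in Coch/Cyp26b1 and 44.7 in Pi16/Smpd3, so it occurred on both sides. It was at 0.299 CPM, 5 UMIs, in Ctla2a/Ndufa4l2.

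**Figure D2:**
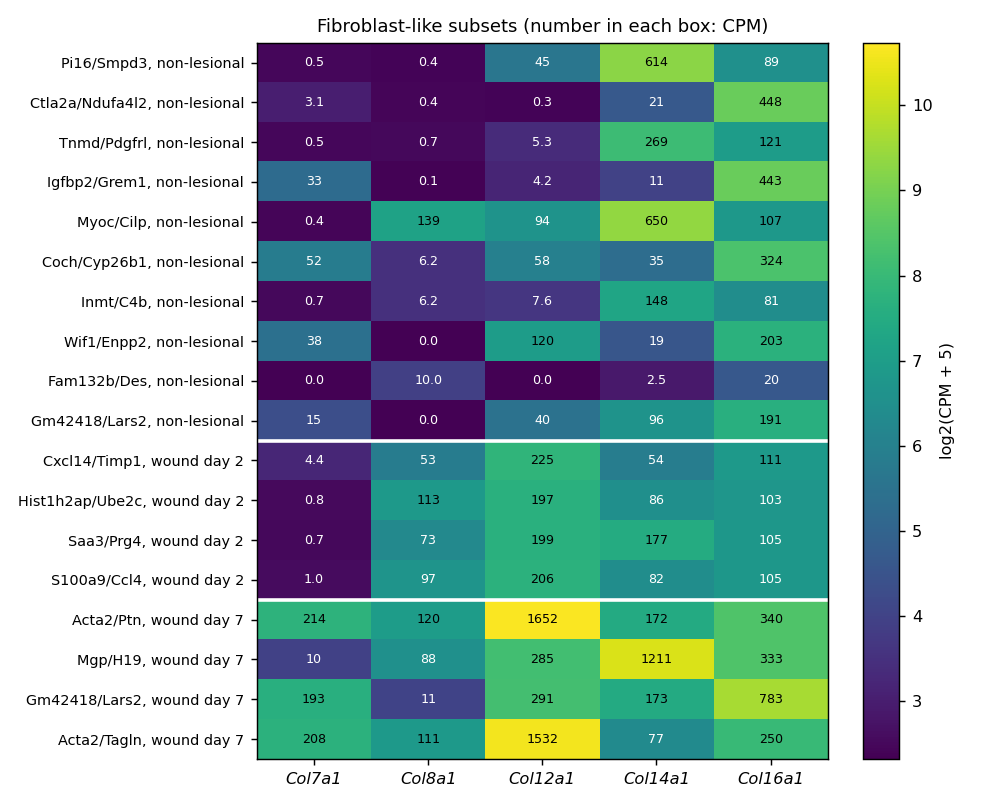
Levels of the 5 genes in fibroblast-like subsets with at least 50 cells in a library (1 PWD2 subset is not shown), rows by subset and library and colour by log2(CPM + 5), with the CPM written in each box. In CTRL rows Col14a1 and Col16a1 are high in different subsets, the PWD2 rows differ more in Col8a1 and Col14a1 than in Col12a1 and Col16a1, and in PWD7 Col12a1 and Col14a1 peak in different subsets.

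At day 2 the subsets differed little in Col12a1 and Col16a1. The 5 subsets with at least 50 cells, among them the dividing Hist1h2ap/Ube2c cells (948), had 197 to 225 CPM of Col12a1 and 103 to 111 CPM of Col16a1. Col14a1 ranged more widely, at 177 CPM (170.0 to 184) in Saa3/Prg4 (536 cells) and 54.1 (51.2 to 57.0) in Cxcl14/Timp1 (1178 cells). Col8a1 was at 113 CPM in Hist1h2ap/Ube2c, 96.8 in S100a9/Ccl4 (192 cells), 73.2 in Saa3/Prg4 and 53.3 in Cxcl14/Timp1. Its intervals in Hist1h2ap/Ube2c (109.6 to 117) and Cxcl14/Timp1 (50.5 to 56.2) were far apart. The 228 Col7a1 UMIs were few everywhere, with 111 of them, 4.35 CPM, in Cxcl14/Timp1. The S100a9/Ccl4 subset led with neutrophil genes, and its levels of the 5 collagens lay within the range of the other day 2 subsets.

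At day 7 the fibroblast-like cells split by Col12a1 and Col14a1. In the Acta2/Ptn subset of 1129 cells, whose leading genes included the smooth muscle actin gene Acta2 and Tagln, Col12a1 was at 1652 CPM (1639 to 1666), Col7a1 at 214 and Col14a1 at 172. The dividing Acta2/Tagln subset of 285 cells was close to it, with Col12a1 at 1532, Col7a1 at 208 and Col14a1 at 77.3 CPM. In the Mgp/H19 subset of 521 cells Col14a1 was at 1211 CPM (1191 to 1231), Col12a1 at 285 and Col7a1 at 10.3. This subset held 22.6% of the day 7 fibroblast-like cells, 64.1% of their Col14a1 UMIs and 1.07% of their Col7a1 UMIs. The Acta2/Ptn subset held 48.9% of the cells, 69.9% of the Col12a1 UMIs and 67.4% of the Col7a1 UMIs. Col12a1 and Col14a1 themselves stand among the 10 leading genes of these subsets, although neither was used to make them.

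Col16a1 did not follow that split, and Col8a1 followed it in the share of cells but not in summed CPM. Col16a1 was at 340.5 CPM (334 to 347) in Acta2/Ptn, 333 (323 to 344) in Mgp/H19 and 250.2 in Acta2/Tagln, the first 2 with overlapping intervals. Col8a1 was at 120.0, 87.6 and 110.5 CPM in the same subsets. By unthinned cells, it was found in 68.6% of Acta2/Ptn and 75.4% of Acta2/Tagln cells but in 12.3% of Mgp/H19 cells. The 1054 Col8a1 UMIs of Mgp/H19 came from 64 of its 521 cells. The remaining subset, led by Gm42418 and Lars2, stood apart. It lay in fibroblast-like clusters, but among the subsets its best-scoring marker list was that of erythroid cells (score 0.8). The fibroblast list came next (0.675), and the globin gene Hbb-bs was among its leading genes. The 317 day 7 cells of this subset had Col16a1 at 783 CPM and Col7a1 at 193 but Col8a1 at 11.1. Their median depth was 6327 UMIs per cell. Without the subsets led by Gm42418, S100a9 and Fam132b, an alternative added after the values were seen, day 7 against non-lesional skin had log2 folds of 3.65 for Col7a1, 0.47 for Col14a1 and 0.33 for Col16a1.

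**Figure D3:**
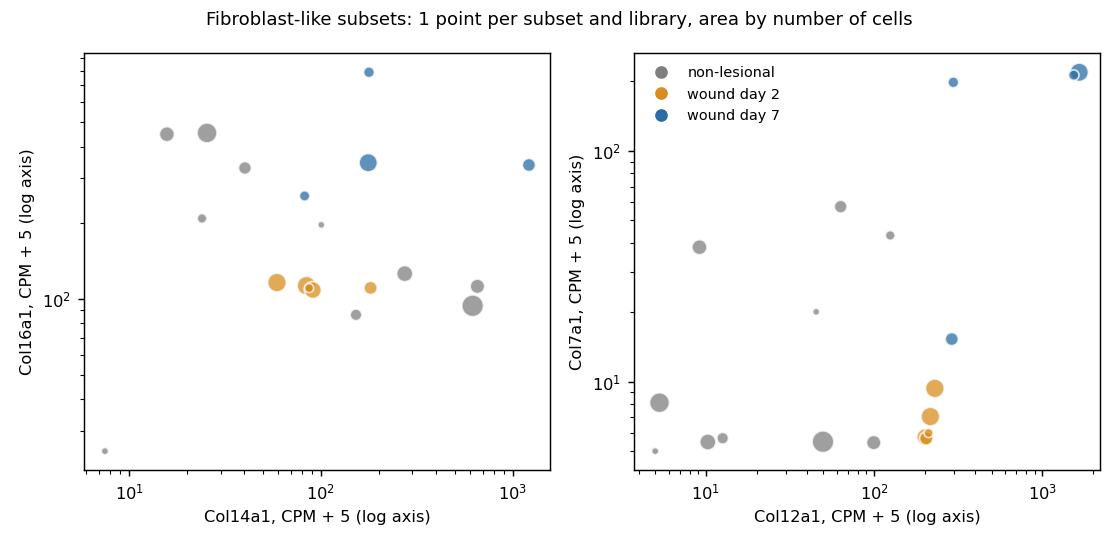
Each point is a fibroblast-like subset with at least 50 cells in a library, coloured by library (grey CTRL, orange PWD2, blue PWD7) and sized by its number of cells, with Col14a1 against Col16a1 on the left and Col12a1 against Col7a1 on the right, both axes CPM + 5 on log scales. The larger grey points run from upper left to lower right in the left panel, and on the right the blue Acta2/Ptn and Acta2/Tagln points lie farthest out, with Col12a1 at 1652 and 1532 CPM.

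Single cells showed the same patterns of sharing. Cells were thinned to 3000 UMIs to remove the difference in depth, which left out 546, 217 and 155 fibroblast-like cells of CTRL, PWD2 and PWD7. In CTRL, Col16a1 was found in 28.1% of 2217 cells with a Col14a1 UMI and in 53.1% of 3725 cells without (51.5 to 54.7). In PWD2 the shares were 31.3% with Col14a1 (28.1 to 34.6) and 26.7% without (25.1 to 28.3), and in PWD7 67.5% (64.5 to 70.4) and 61.6% (58.7 to 64.4). The low share beside Col14a1 was thus seen in non-lesional skin and not in the wound libraries. In CTRL, Col14a1 itself was found in 68.7% of the 99 cells with Col8a1 and in 8.51% of the 141 cells with Col7a1, against 36.8% and 38.0% of the cells without them. In PWD7, Col7a1 was found in 34.2% of cells with Col12a1 (31.9 to 36.6) and in fewer of the 498 cells without, with an interval of 9.32% to 15.2%. Col12a1 was found in 95.7% of PWD7 cells with Col8a1 and 72.7% without, but in 66.7% of those with Col14a1 and 85.8% without. At day 2 Col12a1 was found in 46.6% of cells with Col8a1 (42.9 to 50.5) and 40.1% without (38.4 to 41.9). With or without Col14a1 or Col16a1 its share lay between 39.3% and 42.0%, with overlapping intervals.

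The share of fibroblast-like cells with a UMI followed the levels. After thinning to 1000 UMIs, Col12a1 was found in 2.56% of CTRL cells (2.19 to 2.98), 17.0% of PWD2 cells (15.8 to 18.2) and 53.8% of PWD7 cells (51.7 to 55.9), with 127, 55 and 41 shallower cells left out. Unthinned, the shares were 11.1%, 83.4% and 89.7%. Col7a1 was found in 1.05%, 0.174% and 14.5% of thinned cells and 5.76%, 4.03% and 63.6% of unthinned ones. Col8a1 was found in 0.865%, 7.79% and 8.52% of thinned cells and 2.51%, 47.5% and 47.1% unthinned. Thinning turned the order of CTRL and PWD2 round for Col14a1, at 19.1% of CTRL, 8.44% of PWD2 and 24.9% of PWD7 cells thinned and 50.7%, 60.2% and 77.5% unthinned. The same held for Col16a1, at 18.7%, 11.9% and 32.6% thinned and 67.1%, 82.1% and 95.8% unthinned, and for both genes the thinned order is that of the CPM. The UMIs were uneven among cells. The tenth of PWD7 cells richest in each gene held 51.7% of the Col7a1 UMIs, 62.5% of Col8a1, 36.2% of Col12a1, 47.0% of Col14a1 and 26.5% of Col16a1.

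**Figure D4:**
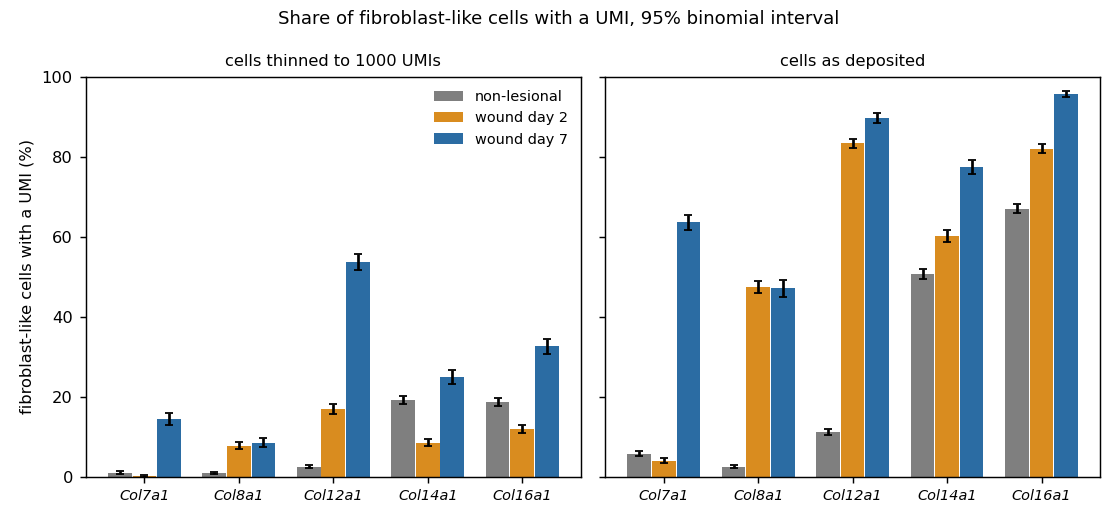
Percentage of fibroblast-like cells with a UMI of each gene, bars by library (grey CTRL, orange PWD2, blue PWD7) with exact binomial 95% intervals, cells thinned to 1000 UMIs on the left and as deposited on the right. On the left PWD2 is the lowest library for Col7a1, Col14a1 and Col16a1, while on the right Col14a1 and Col16a1 are lowest in CTRL, whose cells were shallower.

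Cells that should make none of these collagens gave the background. Thinned in the same way, neutrophil-like cells had Col12a1 in 2.85% of 808 PWD2 cells and 5.41% of 111 PWD7 cells, at median depths of 887 and 1168 UMIs, and 1229 and 66 cells were left out. Unthinned, the shares were 3.04% and 15.3%. The thinned fibroblast-like shares of the wound libraries, except that of Col7a1 at day 2, were higher than those of neutrophil-like cells of the same library. For Col7a1 at day 2, 0 of 808 thinned neutrophil-like cells had a UMI, which allows a share of up to 0.371%, above the 0.174% of fibroblast-like cells. In summed counts, 0 UMIs of Col7a1 were found among 2037 neutrophil-like cells of PWD2, where 3 counts would be 1.44 CPM, so the fibroblast-like level of 2.05 CPM lay close to that limit. PWD7 carried more background, with 126 CPM of Col12a1, 108 of Col16a1, 47.7 of Col14a1, 43.4 of Col7a1 and 4.34 of Col8a1 in 177 neutrophil-like cells. PWD7 values of other classes near those levels are not read as their own expression.

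In non-lesional skin, fibroblast-like cells held 98.8% of the UMIs of Col14a1, 92.4% of Col16a1, 82.0% of Col8a1 and 72.6% of Col12a1, but 37.3% of Col7a1. At day 2 they held between 98.4% and 99.1% of the UMIs of each gene, and at day 7 between 89.8% and 97.1%. These shares depend on which cells each library held, and PWD2 held 1 keratinocyte-like and 0 dermal papilla-like cells. Keratinocyte-like cells, the epidermal source of type VII collagen, held 51.7% of the Col7a1 UMIs of CTRL. Their level was 24.0 CPM (22.4 to 25.7). It was 53.2 CPM (49.3 to 57.4) in the cluster of 630 cells led by Krt14, a keratin of basal cells, 12.1 in that led by Krt1, a keratin of the layers above, and 0.799 in that led by Cst6. At day 7 the Krt14 cluster held 62 cells with 82.0 CPM of Col7a1 (67.7 to 98.5), with an interval that overlaps that of the neutrophil-like cells, 43.4 CPM from 10 UMIs (20.8 to 79.8). Dermal papilla-like cells came from cluster 19 in PWD7 (265 cells) and, but for 1 cell, from cluster 24 in CTRL (118 cells). They had Col7a1 at 42.6 CPM in PWD7 and 40.1 in CTRL, and Col16a1 at 157 CPM in PWD7 and 174 in CTRL. The PWD7 values are not read as their own expression, since neutrophil-like cells of PWD7 had 43.4 CPM of Col7a1 and 108 of Col16a1 (70.2 to 160.1). Those cells had a median depth of 1168 UMIs, against 5311 in dermal papilla-like cells. Nearer that depth, dendritic-like (6513) and monocyte or macrophage-like cells (5734) of PWD7 had 11.6 and 9.69 CPM of Col7a1. Their Col16a1 was at 27.4 and 33.0 CPM. At 1903 UMIs, T, NK or innate lymphoid-like cells had 29.2 and 119.9 CPM. The source of the dermal papilla-like values was not tested. In these dermal papilla-like cells Col14a1 was at 186 CPM in PWD7 and 6.10 in CTRL.

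Col8a1 and Col12a1 were also found in mural cells and in the class of Schwann or melanocyte-like cells. Pericyte or smooth muscle-like cells had Col8a1 at 143 CPM in PWD7 (189 cells, 433 UMIs) and 9.70 in CTRL (299 cells, 23 UMIs), a ratio of 14.7 (9.68 to 23.5). Col12a1 was at 231 CPM in PWD7 and 31.6 in CTRL, a ratio of 7.31 (5.75 to 9.40). Within the Rgs5-led cluster alone, which held 185 PWD7 and 234 CTRL cells, the Col8a1 levels were 144 and 15.8 CPM and the Col12a1 levels 233 and 55.7. The Col8a1 level of PWD7 was far above the 4.34 CPM of neutrophil-like cells. The Col12a1 level of PWD7 (214 to 249) was nearer to that of neutrophil-like cells, 126 CPM (84.3 to 181). Dendritic-like and monocyte or macrophage-like cells of PWD7 had 36.0 and 50.4 CPM of Col12a1. The part of background in the Col12a1 ratio was not tested. Schwann or melanocyte-like cells had Col12a1 at 273 CPM in PWD7 (78 cells) and 246 in CTRL (192 cells), a ratio whose interval includes 1 (0.905 to 1.36). That class mixes cell types in shares that differ between the libraries. Its Dct-led cluster, of melanocyte type, had Col12a1 at 355 CPM in 37 PWD7 cells and 847 in 40 CTRL cells, 171 and 103 of the class's 267 and 156 UMIs, so the ratio of the class is not that of either cell type. They had 236 Col8a1 UMIs in PWD7, 241 CPM, and 0 in CTRL where 3 counts would be 4.74 CPM. Erythroid-like cells, which also gave 837 CPM of Col12a1 in 100 PWD7 cells, are not a known source of collagen, and their values were not tested for other cells' RNA.

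**Figure D5:**
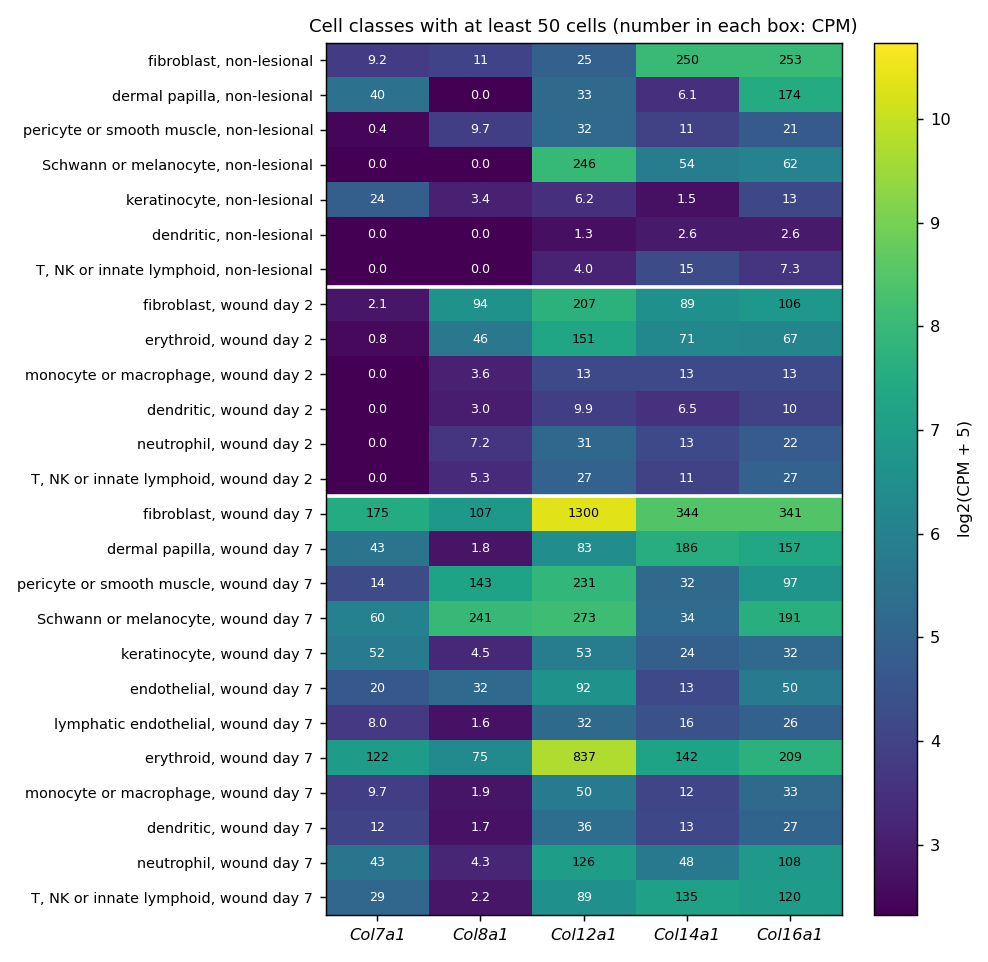
Levels of the 5 genes in each class with at least 50 cells in a library, rows by class and library and colour by log2(CPM + 5), with the CPM written in each box. Keratinocyte-like cells of CTRL carry Col7a1 at 24.0 CPM beside 9.22 in fibroblast-like cells, and the neutrophil-like row of PWD7 holds Col12a1 at 126 CPM beside 31.2 in that of PWD2.

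Related genes were followed in the same fibroblast-like cells, from lists put together with earlier results of these data known. Of 10 measured fibril-forming collagens, 3 were at least 2-fold higher and 3 lower at day 2 than in non-lesional skin, and 5 higher and 1 lower at day 7, with medians of -0.32 and 1.18 on the log2 scale where all genes had 0.05 and 0.12. Of all genes with at least 10 UMIs, 10.9% were higher and 6.3% lower at day 2, and 7.85% and 4.21% at day 7. Col27a1 was at 6.01 CPM in CTRL, 72.8 in PWD2 and 147 in PWD7, and Col5a3, a minor fibril component, at 98.8, 521 and 757. Col11a1, a fibril collagen of cartilage, was at 7.56, 2.30 and 87.6 CPM, lowest at day 2 and highest at day 7 as Col7a1 was. The other FACIT collagens were scarce. Among the 6 measured, 3 or 4 reached 10 UMIs in a pair and 0 passed 2-fold on log2(CPM + 5), which genes near 1 CPM cannot do, with Col9a2, Col9a3 and Col20a1 between 0.0158 and 1.07 CPM. Col8a2, the partner chain of Col8a1, had 101, 6 and 183 UMIs, or 1.60, 0.0540 and 2.76 CPM, and so was lowest at day 2, unlike Col8a1.

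Collagens of basement membranes and type VI were mostly lower at day 2. Of 15, 0 were higher and 8 lower than in non-lesional skin, and at day 7 3 were higher and 6 lower. The shares over all genes with at least 10 UMIs were 10.9% higher and 6.3% lower at day 2, and 7.85% and 4.21% at day 7. Col15a1, a basement membrane collagen, was at 343 CPM in CTRL, 27.3 in PWD2 and 68.1 in PWD7, and Col4a4 at 43.2, 1.09 and 3.90. Col6a1, of the beaded filaments, was at 882, 199.9 and 1702 CPM, a time course like that of Col16a1. Of the 4 transmembrane collagens, Col23a1 was at 40.9 CPM in PWD7 against 11.1 in CTRL, past 2-fold, and at 1.07 times CTRL in PWD2, whereas Col13a1 and Col25a1 stayed under 2 CPM. None passed 2-fold at day 2 on log2(CPM + 5), a scale that understates genes this low: Col13a1 had 4 UMIs in PWD2 and 116 in CTRL, a 51.0-fold lower CPM (19.4 to 190.2).

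Few partners of type VII at the dermal-epidermal junction passed 2-fold on log2(CPM + 5) in fibroblast-like cells, a scale that understates genes of few CPM. Of 13, 0 were higher and 1 lower at day 2 than in non-lesional skin, and 0 of 12 passed 2-fold at day 7. Of all genes with at least 10 UMIs, 10.9% were higher and 6.3% lower at day 2, and 7.85% and 4.21% at day 7. Nothing is read from counts this small. Frem1, a protein of the epidermal basement membrane, was at 13.6 CPM in CTRL, 0.531 in PWD2 and 9.34 in PWD7. Lamb3, a laminin chain, was at 3.18, 0.297 and 0.680 CPM. With 201 UMIs in CTRL and 33 in PWD2, its day 2 CPM was 10.7-fold lower (7.38 to 16.0), though within 2-fold on log2(CPM + 5).

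Among genes of collagen maturation more passed 2-fold upward than downward in both wound libraries. Of 22, 12 were higher and 2 lower at day 2 than in non-lesional skin, and 9 higher and 2 lower at day 7, with medians of 1.23 and 0.79. Among all genes with at least 10 UMIs the higher ones also outnumbered the lower. Their shares were 10.9% and 6.3% at day 2 and 7.85% and 4.21% at day 7. Plod2, a lysyl hydroxylase, was at 7.64 CPM in CTRL, 354 in PWD2 and 114 in PWD7. P4ha3, a prolyl hydroxylase subunit, was at 0.648, 28.1 and 60.3, and Loxl3, a lysyl oxidase relative, at 9.63, 164 and 108.

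Among 13 proteins of the fibril surface 2 were higher and 6 lower at day 2 than in non-lesional skin, and 6 higher and 3 lower at day 7. Of all genes with at least 10 UMIs, 10.9% were higher and 6.3% lower at day 2, and 7.85% and 4.21% at day 7. Tnc, which encodes tenascin-C, had 633 UMIs in CTRL and stood at 749 CPM in PWD2, 74.9-fold above CTRL, and 922 CPM in PWD7. Tnn, another tenascin, was at 409.8 CPM in PWD7 against 9.42 in CTRL. Lum, a proteoglycan that limits fibril growth, was at 1683, 86.3 and 881 CPM. Of 8 collagen receptors, 1 was higher and 1 lower at day 2, and 2 higher and 1 lower at day 7. Beside the same shares of all genes, nothing is read from these receptor counts. Cd44 was at 79.0, 656 and 270.5 CPM, Itga11, an integrin chain that binds collagen I, at 15.0, 3.77 and 30.2, and its partner chain Itgb1 at 257, 435 and 621.

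The genes most like each member were sought over 43 units, the classes, fibroblast-like subsets and libraries with at least 50 cells, among 8331 genes with at least 50 CPM in 1 unit or more. These correlations share libraries and background RNA, so they are a description with no test. Scarf2, Col5a2 and Col6a2 were nearest to Col16a1, with Pearson r of 0.90, 0.88 and 0.88 on log2(CPM + 5). Thbs3, Ogn and Mfap5 were nearest to Col14a1, with 0.85, 0.83 and 0.82. Kif26b, Postn and Tnc were nearest to Col12a1, with 0.84, 0.83 and 0.81. Prss35, Ptk7 and Col11a1 were nearest to Col7a1, with 0.80, 0.79 and 0.78, and Angptl4, P4ha3 and Adamts14 to Col8a1, with 0.80, 0.79 and 0.78. Among the members themselves Col8a1 and Col12a1 were most alike, with 0.71, and Col7a1 and Col14a1 least, with 0.13. Postn, which encodes the matrix protein periostin, was at 375, 469 and 4309.5 CPM in fibroblast-like cells of CTRL, PWD2 and PWD7, and Ogn, a small proteoglycan, at 548, 101 and 252.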

How the data were processed

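The authors deposited UMI counts for every gene and barcode, not normalized. Per the submitters' processing notes, Cell Ranger 3.0.2, Seurat 3.0 and mm10 were used, whereas per the file headers Cell Ranger 5.0.0 wrote the matrices. Here barcodes with at least 200 genes and at most 10% mitochondrial UMIs were kept, which left out 192, 390 and 543 barcodes of CTRL, PWD2 and PWD7 for genes and 368, 372 and 1632 for mitochondrial UMIs. The top 0.8% of Scrublet doublet scores per 1000 barcodes were removed (943, 606 and 428), since its own threshold marked 397, 1 and 0. Clustering used scanpy 1.11.5 with 2000 variable genes that excluded the 5 members, 30 components, 20 neighbours and Leiden resolution 1. Clusters were named from 16 marker lists, each by the best mean score of at least 0.25, at least 3 detected markers and leading genes not of another class. That score limit, and the choice to rank leading genes against other classes, were set after the clusters were seen. Sums gave CPM and log2(CPM + 5), with Poisson, Clopper-Pearson and conditional binomial intervals. Cells were thinned by drawing UMIs without replacement. The fold calculation was checked on simulated counts, which is no test of the differences. A few items are not reported here. Named genes were the members, the 3 genes of each list with the largest fold, and the 3 most like each member. Members and lists were chosen with earlier results of these data known, and genes or cells added after their values were seen are named as such. Scaling factors came from edgeR 4.0.16 and DESeq2 1.42.0.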

Additional observations from a re-analysis of the deposited data

Results flagged for a closer look

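Against the same CTRL library, 3 members stood on opposite sides at the 2 wound days in fibroblast-like cells. The log2 fold of Col7a1 was -1.01 at day 2 and 3.66 at day 7, a difference of 4.67. For Col14a1 the folds were -1.45 and 0.45, a difference of 1.90, and for Col16a1 -1.21 and 0.43, a difference of 1.63. The differences were not tested, since each day is 1 library and both share CTRL.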

How the results depend on the processing

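The 6 counts of members at least 2-fold higher or lower in fibroblast-like cells were recomputed under 14 alternatives: scaling by TMM or median of ratios, a pseudocount of 1 CPM, no minimum on UMIs, at least 500 genes per cell, doublets kept, Leiden resolution 2, members among the clustering genes, a class per cell, cells thinned to 1000 UMIs, the mean of per-cell CPM and, added after seeing the data, leaving out the Gm42418, S100a9 and Fam132b subsets, the dividing subsets or the Wif1 subset. All 84 recomputed counts stayed within 1.5 times of the main count, a limit that a drop from 3 to 2 just meets. None of the log2 folds changed sign. Dropping the minimum on UMIs could change no count or fold, since all members pass that minimum. The count of members lower at day 2 than in non-lesional skin was 3, and 2 under 4 of the alternatives, because Col16a1 lay between -1.47 and -0.83 and Col7a1 between -1.74 and -0.89. For day 7 against non-lesional skin Col14a1 ranged from 0.06 to 0.71 and Col16a1 from 0.03 to 0.88, so that their small excess at day 7 depends on scaling, whereas Col12a1 ranged from 4.94 to 5.66, Col7a1 from 3.34 to 4.11 and Col8a1 from 2.39 to 3.17. Of the log2 folds and shares of cells, 119 recomputed values moved beyond their counting interval and 121 did not. The shares set cells thinned to 3000 UMIs or unthinned against those thinned to 1000, and deeper cells have more UMIs to find. Folds with a pseudocount of 1 CPM were set against intervals made with 5 CPM. The causes of the other moves were not tested. No replicate could be left out, and differences between mice are not measured. No paired analysis was possible because each condition is 1 library.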

Other observations

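Some small groups of cells, under the minimum of 50 per library, were picked after their values were seen. In the melanocyte-type cluster led by Dct, Col12a1 was at 355 CPM in 37 PWD7 cells (303 to 412) and at 847 CPM in 40 CTRL cells (692 to 1027, 103 UMIs). CTRL fibroblast-like cells had 24.7 CPM. The fibroblast-like Apod/Spp1 subset had Col8a1 at 147 CPM in 24 CTRL cells, 667 CPM in 33 PWD2 cells (579 to 766) and 683 CPM in 3 PWD7 cells. Of the Igfbp2/Grem1 subset, 17 cells came from PWD7 and had Col7a1 at 805 CPM (685 to 940.0), against 33.3 CPM in the 722 CTRL cells of that subset. These values cover few cells of 1 library each, and their source was not tested.

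Levels over all deposited barcodes lay close to those over kept cells, although 1632 PWD7 barcodes had been left out for mitochondrial UMIs. Col12a1 was at 983 CPM over all PWD7 barcodes and 1034 over kept cells, and Col7a1 at 142 over both.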
